A study of Mus musculus with 6 samples.

Results

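Potassium channel genes were followed in RNA-seq libraries of mouse microglia with and without the microRNA gene Mir137. They were taken as every row of the count table whose symbol begins with Kcn, then lower-case letters for the subfamily, then a number. That rule found 97 of the 24411 genes in the table. It takes in pore-forming subunits, accessory subunits and 4 non-coding transcripts named after a channel gene (Kcnq1ot1, Kcnd3os, Kcnmb4os1 and Kcnmb4os2). All cells were primary brain microglia of C57BL/6J mice aged 8 weeks. The 6 libraries were labelled gKO (Mir137 knockout, n = 3) or gWT (wild type, n = 3), and the labels name no further allele and no treatment. The comparison asks what the loss of this microRNA does to gene expression in microglia. Nothing in the labels says that libraries of a genotype came from separate mice, so the p-values below reflect only how far these libraries differ, and that spread may be technical.

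Potassium channels let potassium leave the cell and so set its resting membrane potential. In resting microglia most of this work is credited to a background leak channel of the two-pore domain (K2P) family, the product of Kcnk13, whose current is increased downstream of the purinergic receptor P2ry12. Voltage-gated, inwardly rectifying and calcium-activated channels have been tied to activated states of these cells, and potassium efflux is a trigger of the NLRP3 inflammasome, which matures the cytokine interleukin-1 beta.

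The mature arm of the deleted microRNA that is usually studied, miR-137-3p, lies on the plus strand of chromosome 3 at 118433901 to 118433923 (RefSeq, GRCm38.p6). Its bases 2 to 8, the seed, are in capitals below, and the DNA complement of the seed, AGCAATA, is in capitals in stretches of 3′ UTR of channel transcripts. These are shown because they are the places where the deleted microRNA could pair with the most abundant channel mRNA (Kcnk6), with the fourth most abundant (Kcnd1), and with an mRNA whose match is followed by an A (Kcnab3).
mmu-miR-137-3p: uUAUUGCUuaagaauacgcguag
Kcnk6 site 1: aaaataagctaAGCAATAtaataataata
Kcnk6 site 2: tttctagtgcaAGCAATAgaaacttcaag
Kcnk6 site 3: atgcacgaactAGCAATAtgtggatgtgc
Kcnd1 site: cagcaaactctAGCAATAgcagctgctgc
Kcnab3 site: aataaacctaaAGCAATAaagatggcccc

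Mir137 itself had 0 counts in each of the 6 libraries, so it does not check the genotype labels. Library totals were 14603884 to 17652976 counts. One library, gKO replicate 3, stood apart from the rest: on principal component 1 its score was 91.5, against -37.7 to -3.45 for the others, and its deviation from the mean level ran against transcript length (Spearman rho = -0.50 across genes, which are not independent replicates, against -0.04 to 0.30 in the others). Microglial markers were present in every library, with a summed level of 30629 to 37314 CPM in gKO and 32129 to 34471 CPM in gWT for 10 genes. Levels here are CPM (a gene's count relative to its library's total) scaled by TMM, edgeR's between-library normalization. Markers of some other cells differed between the groups without overlap. The sum over 10 endothelial markers was 384 to 470 CPM in gKO and 723 to 922 CPM in gWT, that over 10 mural markers 99.5 to 161 and 262 to 367 CPM, that over 10 fibroblast markers 146 to 155 and 345 to 468 CPM, and that over 10 astrocyte markers 274 to 314 and 379 to 420 CPM. All of these 40 markers had counts. The sum over 9 neutrophil markers was 516 to 989 CPM in gKO and 261 to 333 CPM in gWT. Sums were also higher in gKO, by smaller margins, for oligodendrocyte markers (401 to 466 against 363 to 393 CPM), border macrophage markers (1666 to 1753 against 1549 to 1626 CPM) and T and NK cell markers (54.2 to 65.2 against 43.3 to 44.7 CPM). The monocyte marker sum was lower, 619 to 901 against 928 to 1192 CPM, although the median log2 fold change of that list was 0.59. In such bulk samples fewer cells of a type and less RNA per cell cannot be told apart.

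Of the 97 channel genes, 43 passed the filter on low counts (edgeR's default, about 0.602 CPM in at least 3 libraries) and were tested. None of the 43 was called higher or lower in gKO by edgeR's quasi-likelihood test at a Benjamini-Hochberg adjusted p under 0.05 over all 13403 tested genes, where 0.395% were called higher and 0.231% lower. DESeq2 called 0 of the 78 channel genes that had any count, where it called 1.02% of all genes higher and 1.35% lower. Any gene to which DESeq2 gave no adjusted p is counted here as not called. The limma-voom test called 0 of 43, where 0.388% of all genes were higher and 0.246% lower. At an unadjusted edgeR p under 0.05 there were 3 channel genes, Kcnk12, Kcnj14 and Kcnh2, all lower in gKO. That is 6.98% of the tested channel genes, where the share of all tested genes was 10.9% (5.16% higher and 5.74% lower). No channel gene is in the authors' deposited lists of 75 higher and 201 lower genes.

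The channel transcripts were dominated by 4 genes, of which 3 encode K2P subunits. Kcnk6, Kcnk12, Kcnk13 and Kcnd1 together held 85.1% to 87.2% of the summed channel CPM in gKO and 82.4% to 85.6% in gWT. Levels of different genes can be compared only per length, and per kilobase of the longest annotated transcript Kcnk6 stood first, at 136 ± 28.5 CPM per kb in gKO and 120 ± 2.76 CPM per kb in gWT (SD, n = 3 libraries here and below). Kcnk12 followed with 50.9 ± 8.27 and 72.5 ± 5.31 CPM per kb, Kcnk13 with 32.5 ± 4.08 and 33.0 ± 0.49 CPM per kb, and Kcnd1 with 12.9 ± 1.14 and 15.2 ± 1.16 CPM per kb. This order held in both genotypes, with neighbours further apart than their SDs. Below these came a shallow tail: in gWT, Kcnj13 had 5.94 ± 3.60, Kcnip3 4.01 ± 0.26, Kcne2 3.79 ± 1.43, Kcnk1 3.15 ± 1.37, Kcnj2 3.01 ± 0.51 and Kcnab2 2.49 ± 0.40 CPM per kb. Neighbours in this tail differed by less than the sum of their SDs.

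**Figure D1:**
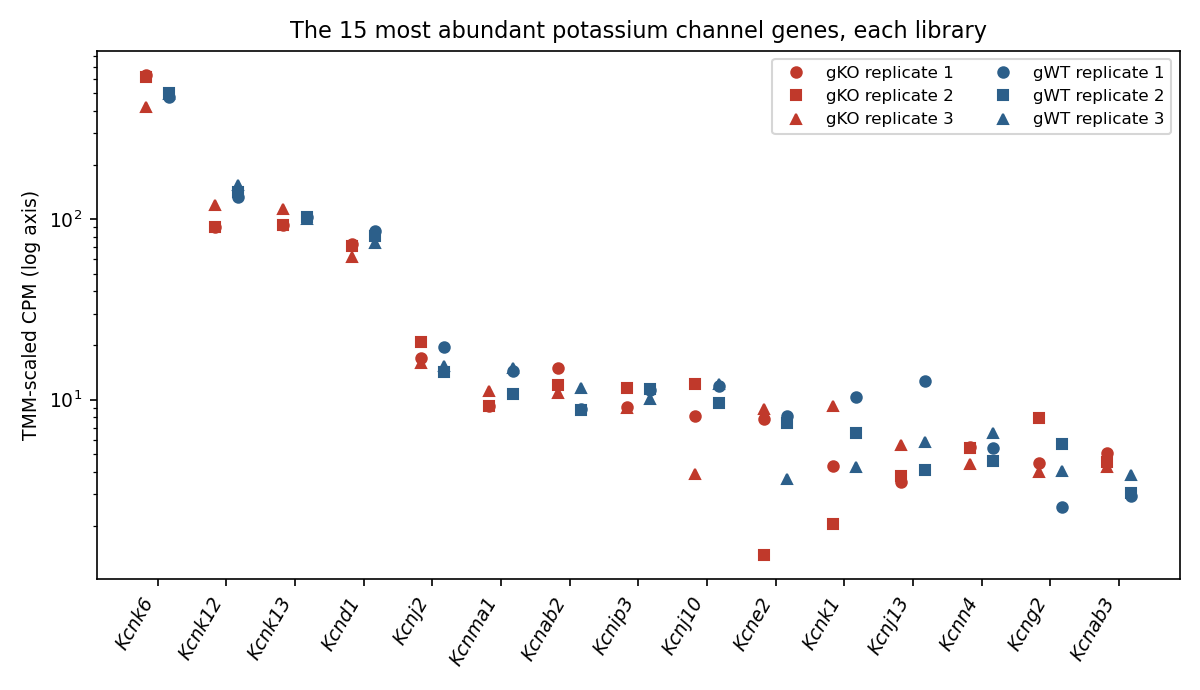
TMM-scaled CPM (log axis) of the 15 channel genes with the highest mean, one symbol per library, gKO in red and gWT in blue. Kcnk6 lies between 421 and 631 CPM, Kcnk12, Kcnk13 and Kcnd1 between 61.5 and 154 CPM, and all the others at or under 20.8 CPM.

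Kcnk12 (ENSMUSG00000050138, chromosome 17, 87745801 to 87797994, GRCm38) encodes a K2P subunit that is the closest relative of the Kcnk13 product, is held largely inside the cell when expressed alone and can assemble with it. Its level was 91.0, 90.9 and 119 CPM in the gKO libraries and 133, 141 and 154 CPM in the gWT libraries. All gKO libraries lay below all gWT libraries, gKO replicate 3 being closest to them. The log2 fold change of gKO over gWT was -0.51 (SE 0.15, 95% interval -0.85 to -0.17, unadjusted p = 0.00886), and with an edgeR adjusted p of 0.250 the gene was not called. Leaving out gKO replicate 3, it was called, at -0.66 (SE 0.09, edgeR adjusted p = 0.000358). It was also called with all 6 libraries when noisy libraries were given less weight (limma-voom with sample quality weights, -0.63, adjusted p = 0.00532), a fit that called 1.95% of all genes higher and 1.13% lower. With the trend of every library against transcript length taken out, it was called at -0.56 (edgeR adjusted p = 0.0221), where 0.961% of all genes were higher and 0.848% lower. In both fits it was the one channel gene called. Without any other single library the edgeR adjusted p was 0.356 to 0.786, with log2 fold changes of -0.56 to -0.45.

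Kcnk13 (chromosome 12, 99964499 to 100062682), the leak channel described above, had 93.0, 92.4 and 114 CPM in gKO and 102, 102 and 99.7 CPM in gWT. The groups overlapped, and the highest and the lowest value were both in gKO. Its log2 fold change was -0.02 (SE 0.13, 95% interval -0.33 to 0.29, edgeR adjusted p = 0.973), so a difference of up to about that interval was not detectable here. Within each library the ratio of Kcnk12 to Kcnk13 CPM was 0.98, 0.98 and 1.04 in gKO and 1.30, 1.38 and 1.55 in gWT. The groups did not overlap in this ratio, which was formed after the levels had been seen and was not tested. gKO replicate 3, highest of its group for both genes, lay close to the other gKO libraries in their ratio.

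Kcnk6 (chromosome 7, 29221926 to 29232515) encodes a K2P channel of endosomal and plasma membranes that has been described as a route of potassium efflux ahead of NLRP3 activation in macrophages. It had 631, 612 and 421 CPM in gKO and 478, 500 and 495 CPM in gWT. In 2 gKO libraries it was above every gWT library, and in gKO replicate 3 it was below them all. The log2 fold change was 0.18 (SE 0.17, 95% interval -0.21 to 0.56, edgeR adjusted p = 0.775). Leaving out gKO replicate 3, it was called higher, at 0.33 (SE 0.06, edgeR adjusted p = 0.00328). In that fit 1 of 49 tested channel genes was higher and 1 lower (2.04% each), namely Kcnk6 and Kcnk12, against 3.99% and 3.82% of all tested genes. Among the other K2P genes, Kcnk5, an acid-sensitive member, had 0.23, 0.69 and 0.71 CPM in gKO and 1.36, 2.34 and 1.46 CPM in gWT (log2 fold change -1.67, SE 0.81, edgeR adjusted p = 0.513). Kcnk1, Kcnk2 and Kcnk3 had log2 fold changes of -0.44, -0.63 and 0.92 with overlapping groups. A further 7 of the 14 K2P genes did not pass the filter, 5 of them with no count in any library.

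**Figure D2:**
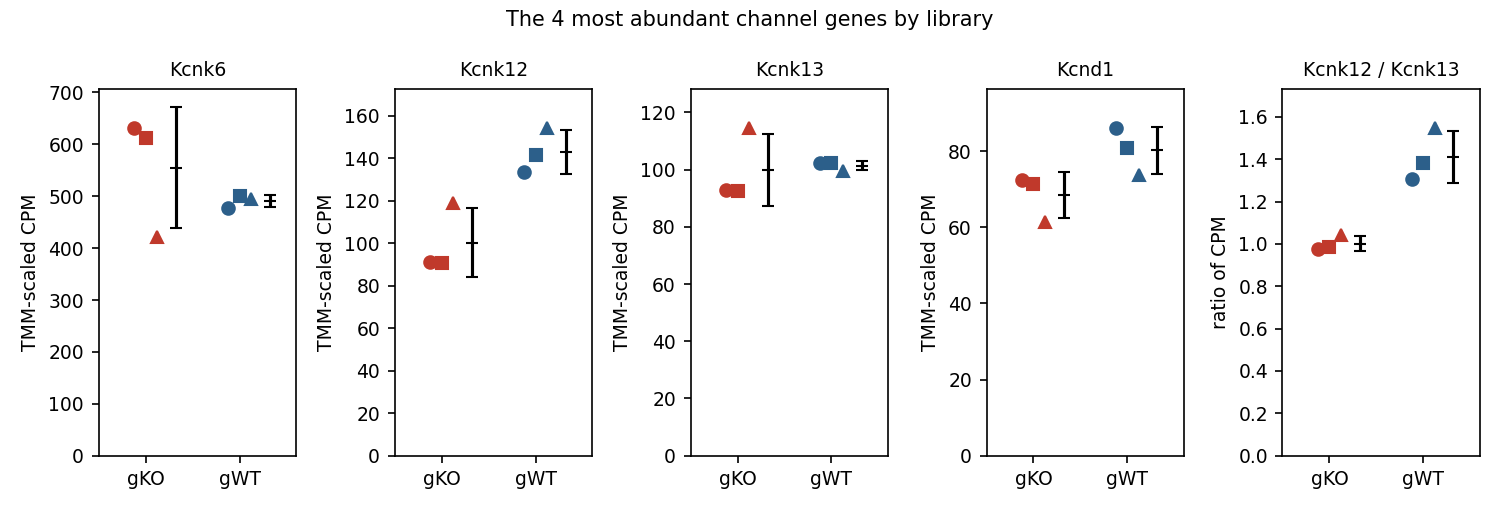
TMM-scaled CPM of Kcnk6, Kcnk12, Kcnk13 and Kcnd1, and the ratio of Kcnk12 to Kcnk13, in each library (circle, square and triangle for replicates 1, 2 and 3; black marks show mean ± SD, n = 3). The triangle of gKO, replicate 3, sits away from the other gKO symbols for Kcnk6, Kcnk12 and Kcnk13, and next to them in the ratio, at 1.04 against 0.98.

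Voltage-gated alpha subunits form the largest class, with 40 genes, of which 14 were tested, 0 called, 3 with a positive and 11 with a negative log2 fold change (median -0.53). Kcnd1 (chromosome X, 7822289 to 7838280), a subunit of fast-inactivating A-type channels, was the one abundant gene of the class, with 72.5, 71.3 and 61.5 CPM in gKO and 86.0, 80.8 and 73.8 CPM in gWT. The groups did not overlap, though the lowest gWT and the highest gKO library were close. The log2 fold change was -0.23 (SE 0.14, edgeR adjusted p = 0.616). Kcnh2, which encodes the cardiac repolarizing channel hERG, had 0.46, 1.71 and 2.26 CPM in gKO and 4.89, 4.69 and 2.87 CPM in gWT (log2 fold change -1.49, SE 0.63, unadjusted p = 0.0436, edgeR adjusted p = 0.443). Kcnq1, a slow delayed rectifier of heart and epithelia, had 1.66, 0.62 and 0.99 CPM in gKO and 4.89, 1.89 and 2.05 CPM in gWT (log2 fold change -1.42, edgeR adjusted p = 0.505). Both were separated between the groups by a narrow gap. Kcnh2 overlaps the antisense gene Gm15589 and Kcnq1 overlaps Kcnq1ot1, so their reads too could include those of the other strand.

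Kcna3 and Kcna5, whose products carry the outward currents reported in activated microglia, were near the limit of detection. Kcna3 had 1.03, 2.40 and 0 CPM in gKO and 2.65, 0.69 and 2.28 CPM in gWT. The groups overlapped, and the 95% interval of the log2 fold change ran from -3.46 to 2.05, so neither a rise nor a fall of several fold was detectable. Kcna5 had 0.92, 0 and 0 CPM in gKO and 3.005, 1.31 and 1.17 CPM in gWT (log2 fold change -2.50, SE 1.40, edgeR adjusted p = 0.579). Kcna2, an axonal subunit, was lower still, at 0 to 0.82 CPM in gKO and 0.41 to 0.80 CPM in gWT. The silent or modifying subunit genes were mostly under the filter: of the Kcnf, Kcng, Kcns and Kcnv genes only Kcng2 was tested (log2 fold change 0.42, edgeR adjusted p = 0.796).

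The accessory subunits of voltage-gated channels were the class with a positive median, 0.15 over 8 tested of 12, with 4 positive and 4 negative values and 0 called. Kcnab2, a cytosolic beta subunit that binds Kcna channels, had 15.001, 12.1 and 10.96 CPM in gKO and 8.90, 8.80 and 11.6 CPM in gWT (log2 fold change 0.38, edgeR adjusted p = 0.641), the lowest gKO library lying below the highest gWT library. Kcnab3, a related beta subunit, had 5.04, 4.53 and 4.24 CPM in gKO and 2.95, 3.03 and 3.81 CPM in gWT. It was the one tested channel gene with every gKO library above every gWT library (log2 fold change 0.50, SE 0.35, edgeR adjusted p = 0.681). Kcnab3 overlaps the antisense gene Kcnab3os, and Kcnab2 overlaps Nphp4 on the other strand. Without a stated strand setting their reads could include those of these neighbours. The overlaps are of whole gene spans, and exons were not compared. Kcnip3, a calcium-binding partner of Kcnd channels, averaged 9.89 ± 1.47 CPM in gKO and 10.96 ± 0.72 CPM in gWT (log2 fold change -0.15, edgeR adjusted p = 0.874).

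Inward rectifiers pass potassium mainly into the cell at negative potentials, and 7 of 15 were tested, with 2 positive and 5 negative values (median log2 fold change -0.54). Kcnj2, the inward rectifier long recorded from cultured microglia, had 16.9, 20.8 and 16.0 CPM in gKO and 19.5, 14.2 and 15.5 CPM in gWT. The groups overlapped, with a log2 fold change of 0.13 (SE 0.22, 95% interval -0.36 to 0.63, edgeR adjusted p = 0.884). Kcnj14 had 3.09, 1.92 and 0.64 CPM in gKO and 6.07, 4.57 and 4.74 CPM in gWT, without overlap (log2 fold change -1.43, SE 0.56, unadjusted p = 0.0339, edgeR adjusted p = 0.405). Its value in gKO replicate 3 was the lowest of the 6.

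Several inward rectifiers are better known from other brain cells. Kcnj10, the main inward rectifier of astrocytes, had 8.13, 12.2 and 3.89 CPM in gKO and 11.9, 9.60 and 12.2 CPM in gWT (log2 fold change -0.48, edgeR adjusted p = 0.736), and the log2 fold change was -0.16 without gKO replicate 3 and -0.90 without gKO replicate 2. Its partner Kcnj16 averaged 1.04 ± 0.41 and 1.82 ± 0.71 CPM (edgeR adjusted p = 0.767). Kcnj8, the ATP-sensitive channel subunit of pericytes, had 5.04, 1.85 and 6.15 CPM in gKO and 4.77, 3.60 and 2.05 CPM in gWT. Its log2 fold change was 0.32 (SE 0.54, edgeR adjusted p = 0.887), while the 10 mural markers, all of them negative, had a median of -1.27. The astrocyte markers had a median of -0.44, with 9 of 10 negative. What part these cells have in the channel values was not tested.

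Kcnj13 and the accessory subunit gene Kcne2 are expressed in choroid plexus epithelium. Kcnj13 had 3.49, 3.77 and 5.59 CPM in gKO and 12.7, 4.06 and 5.86 CPM in gWT (log2 fold change -0.82, edgeR adjusted p = 0.589). Without gWT replicate 1 the log2 fold change was -0.21. It overlaps Gigyf2, which is on the other strand, so its reads could include those of that gene. Overlap was taken from whole gene spans, and exons were not compared. Kcne2 had 7.84, 1.37 and 8.84 CPM in gKO and 8.13, 7.43 and 3.63 CPM in gWT (log2 fold change -0.09, edgeR adjusted p = 0.977). The 10 ependymal and choroid markers summed to 1232, 991 and 2897 CPM in gKO and 2931, 1809 and 1737 CPM in gWT. The part of these cells in the channel values was not tested.

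Calcium- and sodium-activated channels had 6 tested genes of 12, with 2 positive and 4 negative values (median log2 fold change -0.20). Kcnma1, the pore of the large-conductance calcium-activated channel, had 9.28, 9.19 and 11.2 CPM in gKO and 14.4, 10.8 and 14.9 CPM in gWT (log2 fold change -0.43, SE 0.24, edgeR adjusted p = 0.567). Only gKO replicate 3 reached into the gWT range. Kcnn4, an intermediate-conductance channel of activated microglia, had 5.50, 5.42 and 4.38 CPM in gKO and 5.42, 4.57 and 6.56 CPM in gWT (log2 fold change -0.11, SE 0.31, 95% interval -0.82 to 0.60, edgeR adjusted p = 0.933). Kcnn3, a small-conductance channel, did not pass the filter. It had 0 counts in each gKO library and 18, 16 and 3 counts in gWT. Set against a floor of 3 counts over the gKO group, the gWT level was 11.1-fold higher after library scaling. That figure leaves out the counting error in gWT and the spread between replicates, so it is not a lower bound. The non-coding Kcnq1ot1 averaged 2.85 ± 1.81 CPM in gKO and 3.35 ± 1.65 CPM in gWT (log2 fold change -0.23, edgeR adjusted p = 0.928). It is transcribed opposite to Kcnq1, and its reads could include those of that gene.

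**Figure D3:**
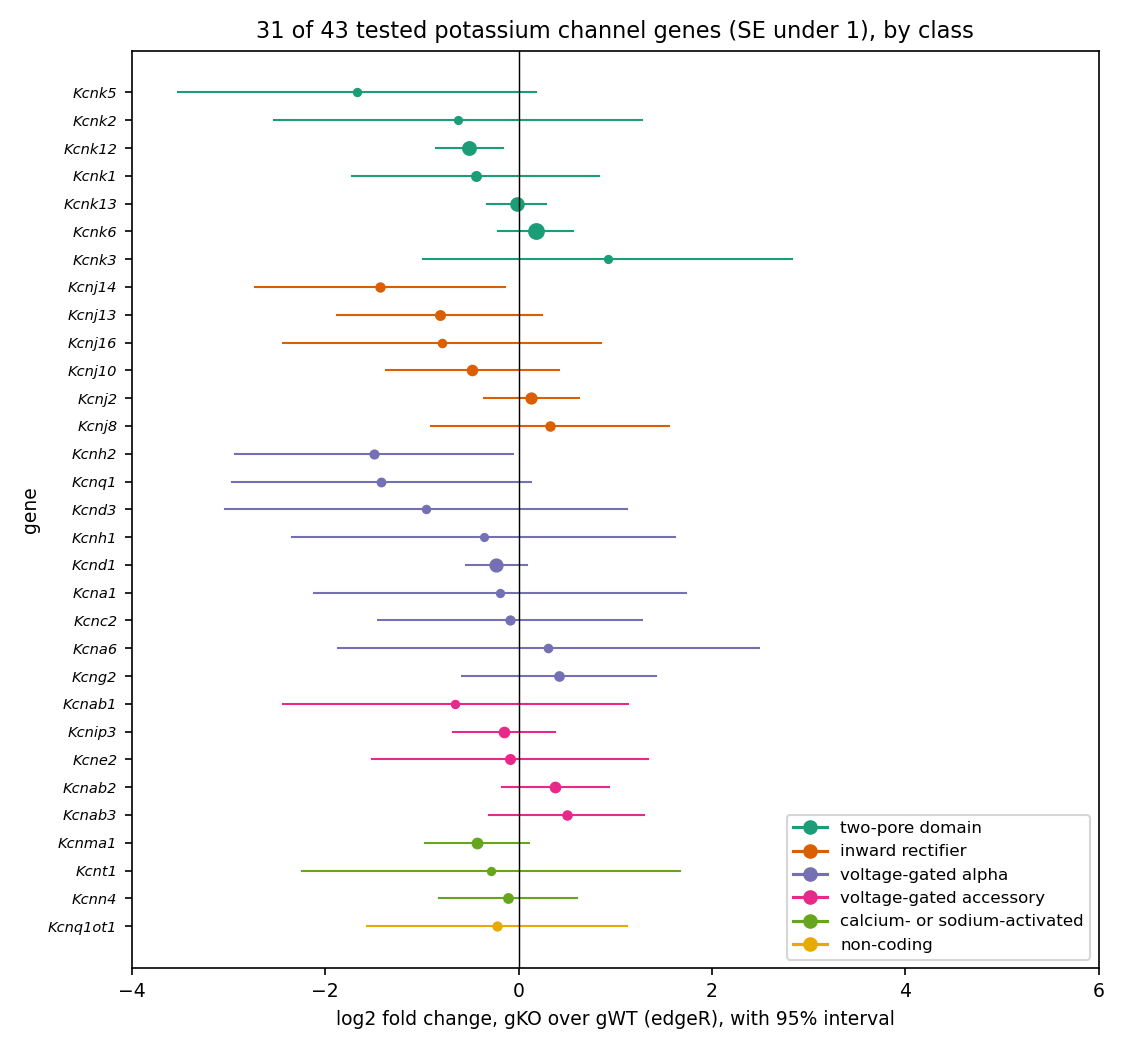
Log2 fold change of gKO over gWT for the 31 of 43 tested channel genes with an SE under 1, a bound set after the values were seen, coloured by class, with 95% intervals from the edgeR fit; larger points mark higher mean CPM. The intervals of Kcnk12, Kcnj14 and Kcnh2 lie below 0 before adjustment over all genes, and all others shown include 0.

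Taking the tested channel genes together, 30 of 43 (69.8%) had a negative log2 fold change, with a median of -0.28, where the share over all tested genes was 49.1% and the median 0.01. The groups did not overlap in 9 of 43 channel genes (20.9%), where the share of all tested genes was 21.3%. Of these, 8 were lower in gKO (Kcnk12, Kcnd1, Kcnj14, Kcnh2, Kcnq1, Kcnk5, Kcna5 and Kcne4; 18.6%, against 11.3% of all tested genes) and 1 was higher (Kcnab3; 2.33%, against 10%). The filter bears on these counts. Of the 43, 21 exceeded it in all 6 libraries. A further 11 exceeded it in all gWT but not in all gKO libraries, and 1 in all gKO but not in all gWT libraries. Among the 8 lower genes, Kcnh2, Kcnk5, Kcna5 and Kcne4 exceeded it in all gWT but not in all gKO libraries, Kcne4 in no gKO library. For these genes a low gKO value and passage of the filter are not independent. Filter passage was not counted in this way over all tested genes. Most channel genes were scarce, and scarce genes leaned the same way in the whole table. Among tested genes with a mean under 10 CPM, a bound set after the values were seen, 25 of 35 channel genes were negative (71.4%, median -0.44), and 58.5% of all genes (median -0.15). Among those at or above 10 CPM, 5 of 8 channel genes were negative (median -0.08), and 44.3% of all genes (median 0.04).

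Fewer channel genes were detected in gKO. In the gKO libraries 47, 48 and 44 of the 97 were above 0, and in the gWT libraries 61, 64 and 64. As shares these were 45.4% to 49.5% and 62.9% to 66.0%, without overlap (two-sided exact permutation p = 0.1, the smallest that 3 against 3 libraries allow), while 56.7% to 57.7% and 61.5% to 62.6% of all genes in the table were detected. By total count the first gKO library was the deepest of the 6 and the other gKO libraries were the shallowest; the part of depth in the detection was not tested. Of the 54 channel genes under the filter, 19 had no count anywhere, 14 had counts in both genotypes, 19 only in gWT and 2 only in gKO. This split was not counted over all genes, which were also detected less in gKO, so it cannot be read as particular to channel genes. Kcnn3, Kcnq5 and Kcns3 had counts in every gWT library and in no gKO library. That pattern held for 8.57% of the 35 channel genes with some count under the filter and for 5.86% of such genes overall. Kcnq5, a subunit of M-type channels, had 4, 1 and 6 counts in gWT, and Kcns3, a silent subunit, had 4, 2 and 11. Over all genes with a count the shares were 3.85% of 78 channel genes and 1.2% of 16524 genes. The reverse pattern was found in 0 of these channel genes and in 0.0484% of these genes.

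**Figure D4:**
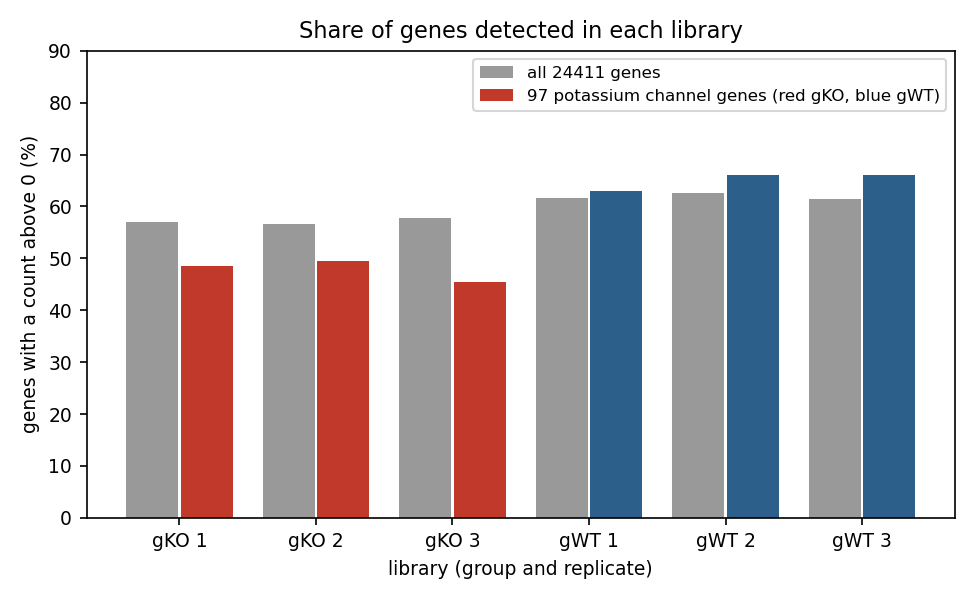
Percentage of genes with a count above 0 in each library, for all 24411 genes (grey) and for the 97 potassium channel genes (red in gKO, blue in gWT). The gKO bars of the channel genes lie at 45.4% to 49.5% and the gWT bars at 62.9% to 66.0%.

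The seed match AGCAATA, searched on the sense strand, was present in the annotated 3′ UTR of 6 of 42 tested channel genes (14.3%), against 10.6% of 12941 tested genes with a 3′ UTR. The channel UTRs were longer, with a median of 1498.5 bases against 1254. Kcnk6 held 3 matches, at bases 1133, 1526 and 2722 of a UTR of 3110 bases, and its log2 fold change was the 0.18 given above. Kcnd1 held 1 match, at base 708 of 1777, with -0.23. Kcnab3, with a match followed by A at base 828 of 899, had 0.50. Kcnc2 (-0.09) held 1 match and Kcna2 (-1.26) held 3. Of these 5 genes, 2 had a positive and 3 a negative value, and edgeR called none. A match of this kind is a string of letters and not a measured site of binding.

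Genes that work with potassium channels were counted in 4 lists. Their counts at an unadjusted edgeR p under 0.05 stand beside a share of 10.9% over all tested genes. Among pumps and cotransporters, which restore the potassium gradient, edgeR called 0 of 23 tested genes (3 at an unadjusted p under 0.05, median log2 fold change -0.25). The sodium-potassium-chloride cotransporter Slc12a2 averaged 220 ± 18.03 CPM in gKO and 284 ± 21.9 CPM in gWT (-0.37, SE 0.13, edgeR adjusted p = 0.344), and the pump subunit Atp1b2 had 20.2 ± 3.15 and 32.7 ± 9.91 CPM (-0.69, edgeR adjusted p = 0.365). Of 31 other ion channels, 0 were called (1 at an unadjusted p under 0.05, median -0.13). The chloride channel protein gene Clic4 averaged 69.4 ± 14.8 CPM in gKO and 110 ± 20.8 CPM in gWT (edgeR adjusted p = 0.275), and the calcium sensor Stim1 had 48.7 ± 13.7 and 67.3 ± 8.03 CPM (edgeR adjusted p = 0.508).

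Of 16 purinergic and adenosine genes, edgeR called 0 (1 at an unadjusted p under 0.05, median -0.17). The smallest p-values were those of the ectonucleotidase Nt5e (-1.18, edgeR adjusted p = 0.457) and the ADP receptor P2ry13 (-0.24, edgeR adjusted p = 0.537). Of 13 inflammasome genes, which act after potassium efflux, 0 were called (3 at an unadjusted p under 0.05, median 0.10). Il1b, the interleukin-1 beta gene, averaged 40.5 ± 10.4 CPM in gKO and 16.6 ± 2.80 CPM in gWT (log2 fold change 1.28, edgeR adjusted p = 0.0733). Il18, a cytokine released by the same route, had 15.6 ± 3.72 and 6.78 ± 0.67 CPM (1.20, SE 0.26, edgeR adjusted p = 0.116). DESeq2 called both higher, at adjusted p-values of 0.000322 and 0.00792, and called none of the other genes in the 4 lists. Il1b was also called higher by edgeR with no filter (adjusted p = 0.0453) and with the length trend removed (adjusted p = 0.0146). Limma-voom with sample quality weights called Il1b (adjusted p = 0.00481) and Il18 (adjusted p = 0.0305) higher and Slc12a2 lower (adjusted p = 0.0422). The other scalings, the stricter filter, unweighted limma-voom and the replicate block called none of the list genes. Leaving out gKO replicate 3, edgeR called 3 of 86 tested list genes higher (Il1b, Il18 and the kinase Wnk1) and 5 lower (Slc12a2, Clic4, P2ry13, Stk39 and Atp1b1), where it called 3.99% of all tested genes higher and 3.82% lower.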

How the data were processed

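RNA-seq was analysed from 6 libraries of microglia, 3 gKO and 3 gWT. RSEM, STAR 2.7.9a, DESeq2, mm10 and GRCm38 are named, without roles, per the submitters' processing notes. Annotation and strand setting: not given in the sources used here. Expected counts per gene symbol were deposited by the authors. Their deposited lists hold, per the file headers, a mean of normalized counts (signal), a log2 fold change, its SE and statistic (scores) and p-values.

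Counts were rounded and tested with edgeR 4.0.16 (R 4.3.3; TMM, default filter, robust quasi-likelihood, genotype alone), with Benjamini-Hochberg adjustment over 13403 genes. SEs were obtained from the log2 fold change and its F statistic. DESeq2 1.42.0, limma 3.58.1 (voom), other scalings and filters, a replicate block, a length correction and each library left out were alternatives. Symbols were matched to GENCODE M21 (23365 by name, 668 by synonym, 378 unmatched), and coordinates are 1-based. Lengths and 3′ UTRs are those of the longest transcript and the longest coding transcript.

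The genes described were the 15 most abundant members, those at an unadjusted p under 0.05, and members fixed for their role in brain cells; in each of the 4 lists, called genes or else the 2 with the smallest p. Members and lists were chosen with earlier results of these data known. In 10 simulated draws of this comparison (a median of 13038.5 genes, 200 changed), the test recovered 2.76% of 1.5-fold, 30.0% of 2-fold and 76.9% of 4-fold changes. The changes were placed in genes of all levels, with noise drawn independently for each gene. These rates are therefore not those of the channel genes, most of which were scarce. Replicates differed by more than sampling noise (chi-square per degree of freedom of 6.59 or more). Some channel genes are not reported here by name.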

Additional observations from a re-analysis of the deposited data

How the results depend on the processing

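No channel gene was called under the scalings, filters and block tried or with DESeq2 and limma-voom. With sample quality weights 1 was called and with the length trend removed 1, Kcnk12 in both. Without each library in turn edgeR called 0 to 2, and both calls came without gKO replicate 3. Genes called in the whole table numbered 84 in the main fit, 391 with DESeq2, 413 with sample quality weights, 241 with the length trend removed, 18 with the replicate number as a block, and 0 to 1079 without each library, 1079 being without gKO replicate 3. Genes of the 4 lists called numbered 0 in the main fit, 1 with no filter, 2 with DESeq2, 3 with sample quality weights, 1 with the length trend removed, and 0 to 8 without each library. The median log2 fold change of tested channel genes was -0.62 with no filter and -0.62 with DESeq2, both over 78 genes instead of 43, -0.47 with sample quality weights, and -0.39 to -0.10 without each library. Channel genes with separate groups numbered 10 to 19, of 47 to 49 tested, without each library, where fewer libraries have to be separated. Without gKO replicate 3, 10.2% of the channel genes were separate and higher and 24.5% separate and lower. The shares of all tested genes in that fit were 19.1% and 21.6%. For the other libraries left out the share over all genes was not counted. With the length trend removed Kcnq1ot1 stood at 0.14. Signs were unstable without single libraries for Kcnk13 (-0.14 to 0.030), Kcne2 (-0.47 to 0.38), Kcnq1ot1 (-0.88 to 0.25), Kcnj8 (-0.015 to 0.68) and Kcnn4 (-0.23 to 0.028). The size also moved, with the sign kept, for Kcnk1 (-1.15 to -0.063), Kcna2 (-6.47 to -0.67), Kcna3 (-1.82 to -0.14), Kcna5 (-7.88 to -1.95), Kcnj2 (0.0084 to 0.27), Kcnj16 (-1.03 to -0.46) and Kcng2 (0.045 to 0.73). Where no construction is named, the cause was not tested. Deviations of libraries with the same replicate number had correlations of 0.05, -0.05 and 0.02. With 3 libraries per group, and gKO replicate 3 far from its group, these cannot tell whether the numbers pair libraries. Under the block 0 channel genes and 0 list genes were called. Depth limits the scarce members: most had under 10 CPM, and the intervals there span several fold.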

Other observations

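Some channel genes under the filter had counts concentrated in 1 library or a pair of libraries. Kcne3, an accessory subunit, had counts of 4, 0 and 49 in gKO against 4, 17 and 6 in gWT. Kcnf1, a silent subunit, had counts of 20, 0 and 0 in gKO against 0, 0 and 2 in gWT. Kcnc4, a voltage-gated alpha subunit, had counts of 22, 12 and 0 in gKO against 0, 1 and 1 in gWT. These genes were chosen after their values were seen, and replicates of 1 genotype differ in them by more than the genotypes do.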
